A study of Homo sapiens with 4 samples.

Results

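A set of 103 protein-coding genes of the cilium was followed in Ishikawa cells, out of 58522 genes listed in the deposited table. The genes were chosen by name: symbols that start with DNAH, DNAI, DNAL, RSPH, DRC, CFAP, IFT or BBS followed by a digit, plus *FOXJ1*. Interferon-induced IFITM genes and 20 pseudogenes or non-coding genes with such symbols were left out. They were split by name into 80 genes called motile axoneme here (13 DNAH, 5 DNAI, 2 DNAL, 8 RSPH, 3 DRC, 48 CFAP and *FOXJ1*) and 23 transport genes (15 IFT and 8 BBS). The axoneme class thus also holds genes that are not parts of the axoneme, such as the transcription factor *FOXJ1* and *CFAP298*, a factor in dynein arm assembly.

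Ishikawa is an established human line of endometrial adenocarcinoma cells that is used as a model of the endometrial epithelium. RNA-seq was done on 2 libraries of cells given a short hairpin RNA (shRNA) against *CDYL*, a chromodomain corepressor, and on 2 libraries of cells given a negative control shRNA. Per the study's methods the shRNA vector carried a green fluorescent marker and puromycin resistance, and transduced cells were selected with puromycin, a step the methods do not limit to either group. The labels do not say whether the paired libraries of a group are separate cultures. They number the *CDYL*-sh libraries sh1 and sh2, and hairpins with these numbers are among the 3 against *CDYL* that the study lists. No source used here states that a library's number is that of its hairpin. For Ishikawa cells the study's text reports a knockdown efficiency for hairpin sh1 but none for hairpin sh2. If the numbers are those of the hairpins, the spread within *CDYL*-sh also holds the difference between hairpins. The p-values thus measure only the spread between these libraries, which may be technical.

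A cilium is a microtubule shaft, the axoneme, that projects from the cell surface. Motile cilia, which beat on the ciliated cells of the endometrial surface and the oviduct, carry outer and inner dynein arms, radial spokes and a nexin-dynein regulatory complex, and their genes are switched on by *FOXJ1* together with RFX factors. Primary cilia lack the beating machinery but, like motile ones, are built by intraflagellar transport (IFT), in which the IFT-B complex carries cargo toward the tip with kinesin-2 and the IFT-A complex returns with dynein-2. The BBSome, made of BBS proteins, moves membrane receptors in and out of the cilium.

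Total counts were 27451007 and 22341852 in the *CDYL*-sh libraries, against 27688447 and 26981051 in the control libraries. *CDYL* itself was at 3.94 and 3.35 FPKM in *CDYL*-sh, against 18.21 and 18.20 FPKM in control. Epithelial markers such as *EPCAM*, *KRT8* and *PAX8* were abundant in all 4 libraries, while the estrogen receptor gene *ESR1* stood at no more than 0.227 CPM (counts per 1e6 counts, scaled by TMM). Of 10 markers of ciliated epithelium, *SNTN* and *C20orf85* had no count in any library. *TUBB4B*, *CAPS* and *FOXJ1*, which other cells also express, made up nearly all of the list's summed level of 1328 and 1410 CPM in *CDYL*-sh, against 1466 and 1563 CPM in control, and the other 7 were at or under 1.01 CPM in every library. Those 7 were thus absent or near 0. Of the factors that start multiciliogenesis, *GMNC* had no count in 3 of the 4 libraries and no more than 0.0357 CPM, while *MCIDAS* was at 2.25 and 1.22 CPM in *CDYL*-sh, against 2.76 and 2.26 CPM in control. *CCNO* was at 11.7 and 12.4 CPM in *CDYL*-sh, against 12.5 and 13.1 CPM in control, and *TP73* at 9.32 and 8.79 CPM in *CDYL*-sh, against 7.22 and 8.74 CPM in control. None of *MCIDAS*, *CCNO* and *TP73* passed the test. Genes that mark other cell types in tissue moved as well, although all 4 libraries came from a cultured line that the study authenticated by DNA profiling. The 4 leukocyte markers summed to 20.9 and 18.2 CPM in *CDYL*-sh, against 7.79 and 11.7 CPM in control, nearly all of it *CD68*, with *CD3E* at 0 in every library. The 4 endothelial markers summed to 8.25 and 9.06 CPM in *CDYL*-sh, against 4.13 and 4.79 CPM in control. *PECAM1* was the first of them, with 5.21 and 6.34 CPM in *CDYL*-sh, against 1.62 and 1.96 CPM in control, while *CDH5*, at 0.250 and 0.317 CPM in *CDYL*-sh, against 0.610 and 0.867 CPM in control, and *CLDN5* had log2 fold changes of -1.38 and -0.46 and did not pass. Of 8 stromal markers *DCN* and *COL3A1* were at 0 throughout, and the list summed to 17.5 and 15.3 CPM in *CDYL*-sh, against 22.9 and 26.0 CPM in control. These sums are levels of those genes in cultures of the line and give no measure of a mixture of cell types. In bulk RNA, fewer expressing cells of the line and less RNA per cell cannot be told apart, and neither was tested.

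Many promoters of these genes held a feature that the choice by name did not use. RFX factors, which drive cilia genes in many animals, bind the X-box, whose half-site is GTTGCC. Of 103 genes, 90 had a promoter in the RefSeq table of GRCh38.p14, taken as 250 bases before to 50 bases after the annotated start, and the half-site was found on either strand in 46 of them, 51.1%. It was found in 14.6% of all 27305 genes with a promoter in that table, and in 16.7% of the 11574 genes that were also tested for expression here. The share was 36 of 69 motile axoneme genes and 10 of 21 transport genes. The half-site was present in 3 of 7 genes that were higher in *CDYL*-sh and 5 of 9 that were lower, in 16 of 35 tested genes that did not pass the test and in 22 of 39 with too few counts to test. A full palindromic X-box, GTTNCCNNGGNAAC, where N is any base and which can contain the half-site on either strand, was found in 3 of the 90 promoters (*DNAH1*, *CFAP45* and *CFAP20DC*) and in 0.593% of all. The forkhead motif TGTTTAC, also searched on both strands and of the kind *FOXJ1* binds, was found in 4 of 90, *CFAP126*, *CFAP43*, *DNAH9* and *IFT20*, that is 4.44%, against 4.19% of all. These are matches of letters in a window, not sites shown to be bound.

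The 30-base windows around the match are shown for the 8 genes past the expression test whose promoter held one, 5′ to 3′ on the strand of the gene, with the X-box of *DNAH1* and the half-site of the others in capitals.
DNAH6: gctggttgaggcGTTGCCtggcgacgtgtt
CFAP97: ctagggcgccatGGCAACcacgcgggctgg
IFT81: ggcctagcaaccGTTGCCaaggagctcgac
DNAH1: aggctgatGTTGCCATGGCAACccggatag
DNAH2: tccctgcccgggGTTGCCatggggacgcgt
IFT122: ccgcgcatgtacGTTGCCaggggtaacgca
IFT46: tttatcagccgcGTTGCCacccatagccgc
CFAP298-TCP10L: actgttgctcttGGCAACatccacttccgg
The first 3 of these genes were higher in *CDYL*-sh and the other 5 were lower. *CFAP298-TCP10L* shares exons with *CFAP298*, whose promoter also held the half-site and which did not pass the test. In GRCh38.p14 the windows lie at chr2:84516410-84516439 (plus strand) for *DNAH6*, chr4:185204196-185204225 (minus) for *CFAP97* and chr12:110124345-110124374 (plus) for *IFT81*. Those of the lower genes lie at chr3:52316206-52316235 (plus) for *DNAH1*, chr17:7717714-7717743 (plus) for *DNAH2*, chr3:129440200-129440229 (plus) for *IFT122*, chr11:118566110-118566139 (minus) for *IFT46* and chr21:32612416-32612445 (minus) for *CFAP298-TCP10L*. The centre of the match stood 74 bases before the annotated start in *DNAH6*, 98 before it in *DNAH1* and 16 before it in *DNAH2*. *DNAH1* held the full palindrome and the promoters of both *DNAH6* and *DNAH2* a half-site, so the same half-site stood before a heavy-chain gene that was higher and before heavy-chain genes that were lower.

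Levels between genes were compared as FPKM, which is scaled to length. The transport genes were expressed almost throughout, and most motile axoneme genes stood at low levels. Of 23 transport genes, 21 had a mean of at least 1 FPKM over the 4 libraries, with a median of 6.18 FPKM. Of 80 motile axoneme genes, 20 reached 1 FPKM, and the median was 0.179 FPKM. The first 7 axoneme genes by mean FPKM held 85.4% of the class's summed FPKM. They were *CFAP20*, which seals the inner junction of the doublet microtubules, with 118 FPKM, *CFAP298*, a factor in dynein arm assembly, with 76.3 FPKM, and *DNAL4*, *CFAP68*, *CFAP36*, *CFAP119* and *CFAP410* with 32.6, 30.7, 22.5, 17.4 and 12.2 FPKM. None of these 7 is a dynein heavy chain, an intermediate chain or a spoke-head subunit.

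**Figure D1:**
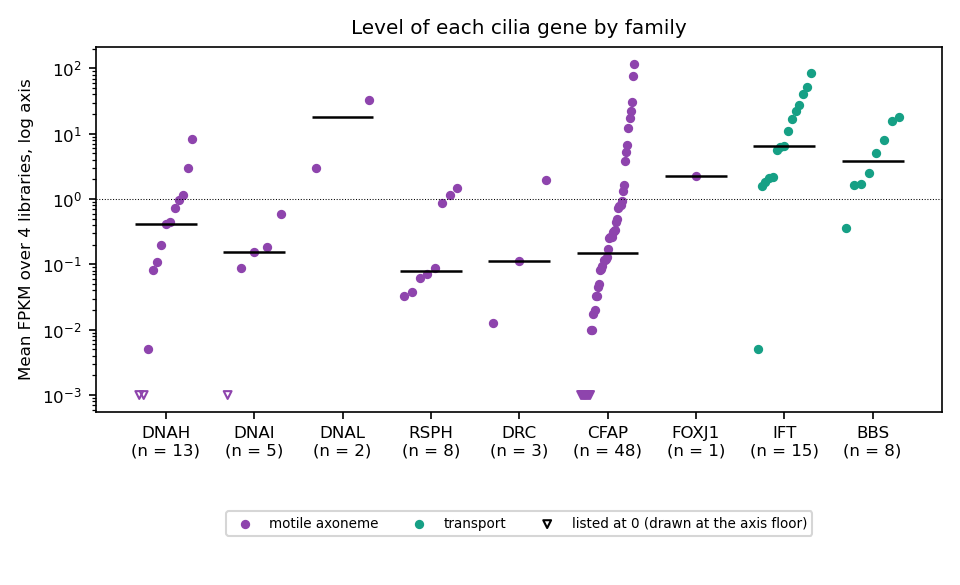
Mean FPKM over the 4 libraries (log axis) of each of the 103 cilia genes by family, with the family median as a bar and genes listed at 0 drawn at the floor of the axis. IFT and BBS genes sit mostly above 1 FPKM (dotted line), while 20 of 80 axoneme genes do.

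Genes had to pass a filter on low counts (edgeR's filterByExpr) to be tested, and 62 of the 103 did, 40 of 80 motile axoneme genes and 22 of 23 transport genes. The other 41 never exceeded 15 counts in any library. Of these, 11 had no count in any of the 4: *CFAP77*, *CFAP95*, *CFAP97D2*, *CFAP107*, *CFAP141*, *CFAP144*, *CFAP161*, *CFAP276*, *CFAP299*, *DNAH8* and *DNAI2*. A total of 0 over the 4 libraries allows up to 3 counts, or 0.0287 CPM, by counting error alone, so a lower level than that was not detectable at this depth. The untested genes include parts of the dynein arms and spokes. *DNAI1*, an intermediate chain of the outer arm, had 4 and 2 counts in *CDYL*-sh, against 0 and 3 in control. *DNAH5*, a heavy chain of the outer arm, had 8 and 9 counts in *CDYL*-sh, against 4 and 3 in control. Neither passed the filter, and the same was true of the spoke-head gene *RSPH4A* (6 and 4 counts in *CDYL*-sh, against 10 and 3 in control) and of *DRC1* (1 and 1 counts in *CDYL*-sh, against 3 and 2 in control), which anchors the nexin-dynein complex. *DNAI3*, an inner-arm intermediate chain, and *DRC7* were also under the filter, with at most 6 counts in any library. Among transport genes only *IFT27*, a small GTPase of IFT-B, fell out, with 1 and 0 counts in *CDYL*-sh, against 1 and 0 in control. Its partner *IFT25* was the highest of all transport genes, with 93.8 and 89.7 FPKM in *CDYL*-sh, against 72.2 and 85 FPKM in control.

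Of the 62 genes tested, 17 changed with an adjusted p under 0.05 in edgeR's quasi-likelihood test, which is 27.4%. Over all 16158 genes tested 25.7% passed, so the cilia genes passed about as often as any gene. In *CDYL*-sh 7 of the 62 were higher, against 13.6% of all genes, and 10 were lower, against 12.1%. Motile axoneme and transport genes passed at nearly the same rate, 11 of 40 and 6 of 22, with 6 axoneme genes higher and 5 lower, and 1 transport gene higher and 5 lower. The difference in direction was not tested. The median log2 fold change was 0.11 over the tested axoneme genes and -0.09 over the transport genes, beside 0.01 over all genes tested. Without *CDYL*-sh library 2, which was the shallowest, 7 cilia genes passed (6 axoneme, 1 transport), 10.9% of those tested, beside 12.4% of all genes. Without control library 1 there were 11, or 16.9% beside 20.2%, and 2 transport genes were then higher and 1 lower. Without *CDYL*-sh library 1 there were 12, or 18.2% beside 19.1%, among them 7 axoneme genes, and 3 transport genes were higher and 2 lower. With upper-quartile scaling 2 transport genes were higher and 3 lower. The excess of lower over higher transport genes therefore turned without *CDYL*-sh library 1 and without control library 1.

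**Figure D2:**
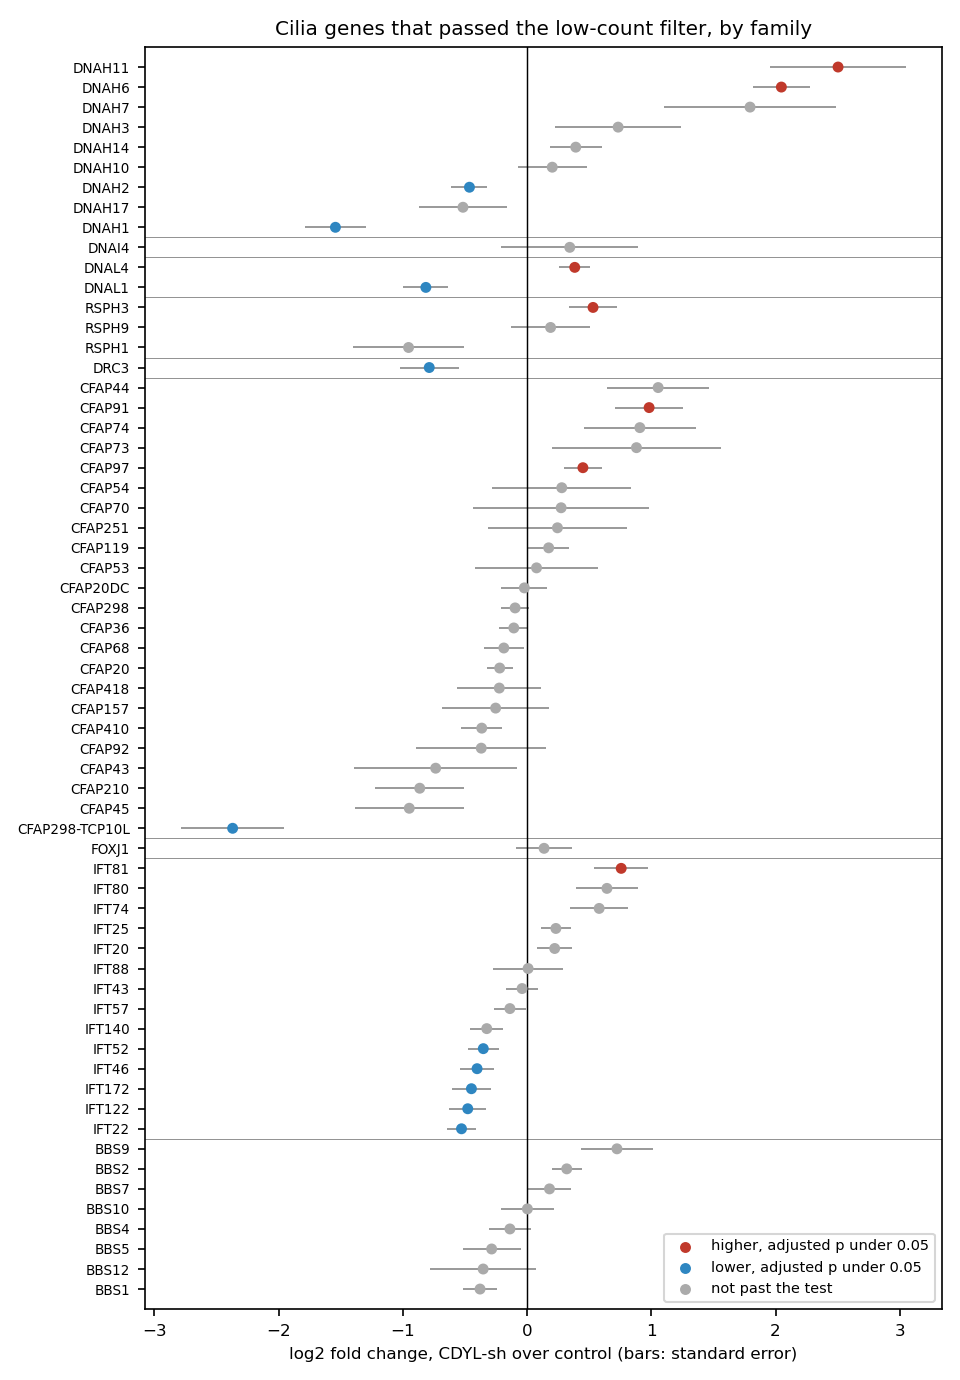
log2 fold change of *CDYL*-sh over control with its standard error for the 62 tested cilia genes, by family, from the dyneins at the top to BBS at the bottom. The DNAH family spans the widest range, from -1.54 for *DNAH1* to 2.50 for *DNAH11*, apart from *CFAP298-TCP10L* at -2.37. Of the 8 BBS genes 0 passed the test, beside 25.7% of all genes.

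Fold changes are given as log2 values ± their standard error. Where groups are said not to overlap, this describes the libraries and adds no support, since the test used the same counts. The heavy chains, the motors of the dynein arms, held the largest changes of the dynein families, and they went both ways. *DNAH6*, the inner-arm heavy chain on chromosome 2, plus strand, 84516455 to 84819589 of GRCh38, had 341 and 297 counts in *CDYL*-sh, against 110 and 59 in control. Scaled to library size, this was 12.2 and 13.5 CPM in *CDYL*-sh, against 3.95 and 2.22 CPM in control. Both *CDYL*-sh libraries stood at more than 3 times the higher control library, and the groups did not overlap. *DNAH6* was higher, with a log2 fold change of 2.05 ± 0.23 (adjusted p = 9.22e-06), the lowest adjusted p among the 103 genes, and it passed in each of the 15 alternatives based on counts. The value lay between 1.69 and 2.51 when a library was left out.

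*DNAH11*, an outer-arm heavy chain (chromosome 7, plus strand, 21543039 to 21901839), had 31.0 and 32.2 counts in *CDYL*-sh, against 7 and 5.01 in control. All of these counts are low, but the *CDYL*-sh libraries were both well above the controls. It was higher, with a log2 fold change of 2.50 ± 0.55 (adjusted p = 0.00258). In FPKM the groups overlapped, with 0.23 and 0.84 FPKM in *CDYL*-sh, against 0.07 and 0.63 FPKM in control. The gene overlaps *CDCA7L* on the opposite strand over 5.16% of its exon bases. The study's methods mention an orientation mode for the alignment, but whether reads were counted by strand is not given in the sources used here, and so neither is which gene reads in that overlap went to.

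*DNAH1*, also an inner-arm heavy chain, whose loss stops sperm flagella from forming normally, moved the opposite way. It lies on chromosome 3, plus strand, 52316319 to 52400492, and its level was 2.14 and 1.95 CPM in *CDYL*-sh, against 6.43 and 5.54 CPM in control. Each *CDYL*-sh library was below each control library. *DNAH1* was lower, with a log2 fold change of -1.54 ± 0.24 (adjusted p = 1.92e-04).

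*DNAH2*, an inner-arm heavy chain and the second of the family by FPKM, had 13.8 and 13.7 CPM in *CDYL*-sh, against 20.2 and 17.8 CPM in control. The *CDYL*-sh libraries were nearly equal and both below the controls. It was lower, with a log2 fold change of -0.46 ± 0.14 (adjusted p = 0.0248). The adjusted p was 0.113 without *CDYL*-sh library 1, 0.172 without *CDYL*-sh library 2 and 0.0785 without control library 1.

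Of the 9 heavy chains tested, 2 were thus higher and 2 lower, beside 13.6% and 12.1% of all genes, and these counts are small. The other 5 tested heavy chains did not pass. *DNAH7*, an inner-arm chain, had 13 and 13 counts in *CDYL*-sh, against 3 and 5 in control, with a log2 fold change of 1.79 ± 0.70 (adjusted p = 0.0658). *DNAH3* was at 1.18 and 1.13 CPM in *CDYL*-sh, against 1.04 and 0.339 CPM in control, with a log2 fold change of 0.73 ± 0.51 (adjusted p = 0.310). In both genes the groups did not overlap in CPM, but the counts are few. *DNAH10*, *DNAH14* and *DNAH17* had log2 fold changes of 0.20, 0.39 and -0.52 with standard errors of 0.28, 0.21 and 0.36. *DNAH14* had the highest FPKM of the family, 8.22 and 9.31 FPKM in *CDYL*-sh, against 8.64 and 6.55 FPKM in control, on only 5.89 and 7.48 CPM in *CDYL*-sh, against 4.99 and 5.16 CPM in control. Dividing its count by its FPKM and by the library total gives the transcript length over which RSEM spread the reads, which was 731 and 793 bases in *CDYL*-sh, against 581 and 775 bases in control, set beside 14065 bases of its canonical transcript. The FPKM of *DNAH14* was thus computed over a length far under that of the full heavy-chain mRNA. For *DNAH6* the same calculation gave 8281 and 8804 bases in *CDYL*-sh, against 7223 and 6248 bases in control, of 12752 bases.

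The light chains also split. *DNAL1*, a light chain of the outer arm (chromosome 14, plus strand, 73644875 to 73703732), had 5.89 and 6.66 CPM in *CDYL*-sh, against 11.5 and 10.5 CPM in control. Both *CDYL*-sh libraries were below both controls, with a log2 fold change of -0.81 ± 0.18 (adjusted p = 0.00291). *DNAL4*, the other light chain of the set and one of its most abundant axoneme genes, had 39.0 and 47.2 CPM in *CDYL*-sh, against 32.2 and 33.8 CPM in control. It was higher, with a log2 fold change of 0.38 ± 0.12 (adjusted p = 0.0307), but the adjusted p was 0.419 without *CDYL*-sh library 2 and 0.129 without control library 1. The only intermediate chain tested was *DNAI4*, of the inner arm, which had 15 and 13 counts in *CDYL*-sh, against 13 and 11 in control and did not pass (log2 fold change 0.34 ± 0.55, adjusted p = 0.688).

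Among radial spoke genes, *RSPH3*, a subunit of the spoke stalk, was at 8.71 and 7.75 CPM in *CDYL*-sh, against 5.42 and 5.99 CPM in control. The groups did not overlap, and *RSPH3* was higher, with a log2 fold change of 0.53 ± 0.19 (adjusted p = 0.0492), just inside the threshold. Leaving out any library but control library 2 raised the adjusted p to between 0.129 and 0.309. The spoke-head genes *RSPH1* and *RSPH9* did not pass. *RSPH1* was at 0.786 and 0.544 CPM in *CDYL*-sh, against 1.26 and 1.36 CPM in control (log2 fold change -0.95 ± 0.45, adjusted p = 0.1248). *RSPH9* had 2.14 and 2.08 CPM in *CDYL*-sh, against 2.01 and 1.70 CPM in control (log2 fold change 0.19 ± 0.32, adjusted p = 0.700). *DRC3*, of the nexin-dynein regulatory complex, was the only DRC gene tested, at 3.32 and 2.63 CPM in *CDYL*-sh, against 5.24 and 5.09 CPM in control. It was lower, with a log2 fold change of -0.79 ± 0.24 (adjusted p = 0.0203). The adjusted p was 0.214 without *CDYL*-sh library 2 and 0.0546 without control library 1, and *DRC3* shares 8.81% of its exon bases with *ATPAF2* on the opposite strand.

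Of 48 CFAP genes, which encode a mixed group of cilia- and flagella-associated proteins, 23 were tested and 3 passed, beside 25.7% of all genes tested. *CFAP91*, a protein at the base of the radial spokes, had 102 and 80 counts in *CDYL*-sh, against 54 and 46 in control. The *CDYL*-sh libraries held nearly the same CPM, 3.64 and 3.63, against 1.94 and 1.73 CPM in control. It was higher, with a log2 fold change of 0.98 ± 0.28 (adjusted p = 0.0138). The adjusted p was 0.0705 without *CDYL*-sh library 1 and 0.0757 without *CDYL*-sh library 2. In FPKM the same gene did not separate, with 2.28 and 0.880 FPKM in *CDYL*-sh, against 2.19 and 1.26 FPKM in control. *CFAP97* had 18.6 and 20.03 CPM in *CDYL*-sh, against 15.9 and 12.4 CPM in control, and was higher (log2 fold change 0.45 ± 0.15, adjusted p = 0.0388). Its adjusted p lay between 0.102 and 0.257 without *CDYL*-sh library 1, *CDYL*-sh library 2 or control library 2.

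*CFAP298-TCP10L* is an annotated read-through of *CFAP298* and the gene next to it, and it had the largest fall of the set. It was at 11.2 and 37.2 counts in *CDYL*-sh, against 110.1 and 168 in control, with a log2 fold change of -2.37 ± 0.42 (adjusted p = 5.02e-04). Both *CDYL*-sh libraries were below both controls, and they also differed from each other, 0.393 and 1.68 CPM. The value was -1.63 without *CDYL*-sh library 1 and -3.69 without *CDYL*-sh library 2. DESeq2 gave it an adjusted p of 0.064. RSEM, which the processing notes name, divides reads between transcripts that share exons, as this gene and *CFAP298* do, so the value is uncertain. Of the counts of the 2 genes together it held 0.400% and 1.98% in *CDYL*-sh, against 3.86% and 6.11% in control. *CFAP298* alone was at 99.3 and 83.4 CPM in *CDYL*-sh, against 98.3 and 97.2 CPM in control, and did not pass (log2 fold change -0.10 ± 0.11, adjusted p = 0.560). *CFAP20*, the highest cilia gene by FPKM, was at 93.2 and 87.1 CPM in *CDYL*-sh, against 101 and 109 CPM in control, and did not pass (log2 fold change -0.22 ± 0.10, adjusted p = 0.130). *CFAP68*, a protein inside the doublet microtubules, was at 10.7 and 13.2 CPM in *CDYL*-sh, against 14 and 13.2 CPM in control (log2 fold change -0.19 ± 0.16, adjusted p = 0.426).

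*FOXJ1*, the transcription factor of motile ciliogenesis, had 131 and 141 counts in *CDYL*-sh, against 128 and 144 in control. Scaled to library size it stood at 4.68 and 6.39 CPM in *CDYL*-sh, against 4.595 and 5.43 CPM in control. The groups overlapped, and *FOXJ1* did not pass (log2 fold change 0.14 ± 0.22, adjusted p = 0.693).

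**Figure D3:**
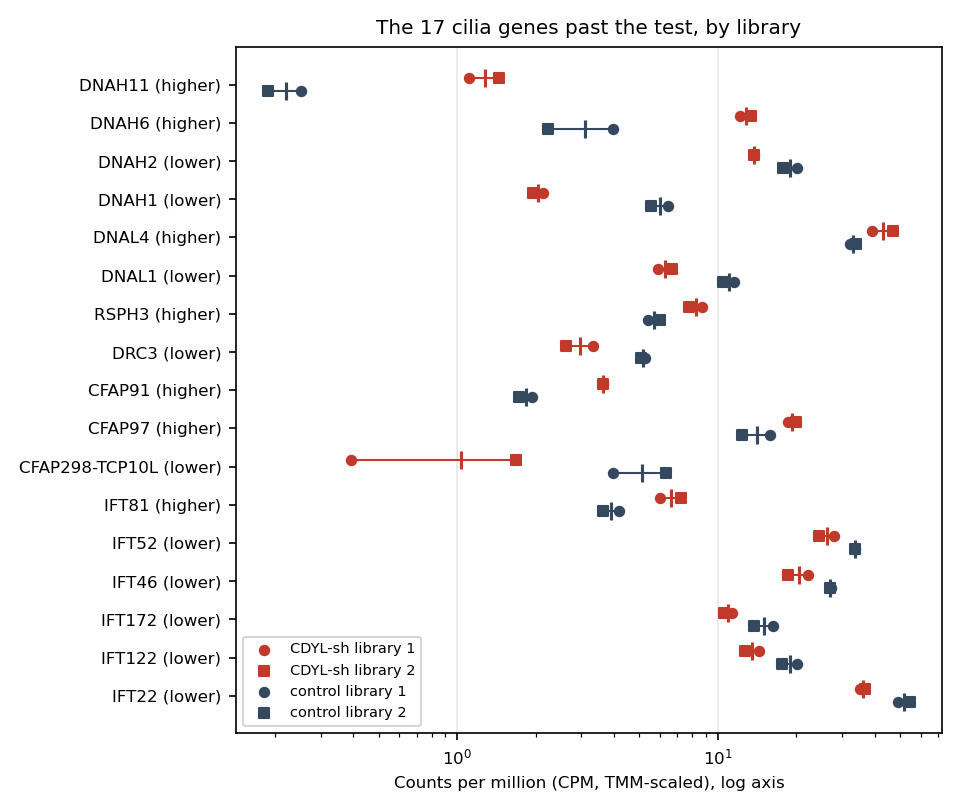
CPM (log axis) per library of the 17 cilia genes past the test, with *CDYL*-sh in red above control in grey, circles for library 1, squares for library 2 and a tick at the group mean. In every gene the *CDYL*-sh libraries lie on the same side of the control libraries, 7 genes higher and 10 lower. The genes were picked by the test on these same counts, so this separation follows largely from the choice.

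Of 14 tested IFT genes 6 passed, and 5 of these were lower in *CDYL*-sh, beside 25.7% of all genes past the test and 12.1% lower. The count is small and varied with the setting. With DESeq2 1 was higher and 2 lower, beside 11.2% and 10.6% of all genes. With limma-voom 1 was higher and 3 lower, beside 13.9% and 12.2%. With offsets for GC content and length 1 was higher and 7 lower, beside 15.3% and 17.5%. *IFT22*, a small GTPase-like subunit of IFT-B (chromosome 7, minus strand, 101310914 to 101321823), was at 35.1 and 36.8 CPM in *CDYL*-sh, against 49.1 and 54.6 CPM in control. Both *CDYL*-sh libraries were below both controls, with a log2 fold change of -0.53 ± 0.12 (adjusted p = 0.00281). It passed in all 15 count-based alternatives. Exons of *IFT22* overlap the non-coding gene *EMSLR* on the opposite strand over 59.0% of their bases. *EMSLR* had 222 and 225 counts in *CDYL*-sh, against 339 and 307 in control, and without counting by strand the reads of the 2 genes cannot be told apart in that stretch.

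The other lower IFT genes changed by less and held less firmly. *IFT122*, a subunit of the IFT-A core, was at 14.4 and 12.7 CPM in *CDYL*-sh, against 20.1 and 17.7 CPM in control (log2 fold change -0.48 ± 0.15, adjusted p = 0.0241). *IFT172*, the largest IFT-B subunit, was at 11.4 and 10.6 CPM in *CDYL*-sh, against 16.2 and 13.8 CPM in control (log2 fold change -0.45 ± 0.16, adjusted p = 0.0461). *IFT46* and *IFT52* bind each other in the IFT-B core. *IFT46* was at 22.2 and 18.6 CPM in *CDYL*-sh, against 27.2 and 26.9 CPM in control (log2 fold change -0.40 ± 0.13, adjusted p = 0.0337). *IFT52* was at 28.03 and 24.4 CPM in *CDYL*-sh, against 33.5 and 33.5 CPM in control (log2 fold change -0.35 ± 0.12, adjusted p = 0.0451). In all 4 genes the groups did not overlap, and all 4 lost the call without *CDYL*-sh library 2 (adjusted p from 0.264 to 0.419) and without control library 1 (from 0.0728 to 0.154). *IFT122*, *IFT172* and *IFT52* also lost it without *CDYL*-sh library 1, at 0.0514, 0.123 and 0.0549, and *IFT52* without control library 2, at 0.0524.

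*IFT81* was the 1 transport gene that was higher. With *IFT74* it forms the part of IFT-B that binds tubulin, and it was at 5.999 and 7.21 CPM in *CDYL*-sh, against 4.16 and 3.62 CPM in control. The groups did not overlap, and *IFT81* had a log2 fold change of 0.76 ± 0.22 (adjusted p = 0.0152). Without *CDYL*-sh library 2 the adjusted p was 0.182. *IFT74*, its partner, was at 4.89 and 4.71 CPM in *CDYL*-sh, against 3.52 and 2.90 CPM in control, and did not pass (log2 fold change 0.58 ± 0.24, adjusted p = 0.0782), nor did *IFT80* (log2 fold change 0.64 ± 0.25, adjusted p = 0.0684). Subunits of IFT-B therefore stood on both sides of 0 in the same libraries. Of the abundant subunits, *IFT25* (log2 fold change 0.23 ± 0.12, adjusted p = 0.164) and *IFT43* of IFT-A (log2 fold change -0.04 ± 0.13, adjusted p = 0.851) did not pass.

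All 8 BBS genes were tested, and 0 passed, beside 25.7% of all genes tested. DESeq2 and limma-voom on the same counts called 0 as well, beside 21.8% and 26.1% of all genes. With offsets for GC content and length 1 was higher, beside 15.3% of all genes. In edgeR 3 of the 8 had an unadjusted p under 0.05, beside 6093 of all 16158 genes. With 8 genes these counts are small. *BBS1*, which in the BBSome binds the GTPase ARL6, came nearest the threshold, at 16.8 and 14.9 CPM in *CDYL*-sh, against 20.5 and 20.8 CPM in control (log2 fold change -0.38 ± 0.14, adjusted p = 0.0534). *BBS2* was at 37.1 and 33.0 CPM in *CDYL*-sh, against 28.1 and 28.1 CPM in control (log2 fold change 0.32 ± 0.12, adjusted p = 0.0631), and the groups did not overlap in either gene. *BBS7*, a partner of *BBS2*, was at 12.2 and 15.8 CPM in *CDYL*-sh, against 13.5 and 11.1 CPM in control, with groups that overlapped (log2 fold change 0.18 ± 0.17, adjusted p = 0.473). *BBS9* had the largest value of the family, a log2 fold change of 0.72 ± 0.29 (adjusted p = 0.0758).

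Counts and FPKM did not always give the same ratio, since FPKM also follows the transcripts to which RSEM gave the reads. The implied length could be computed for 55 of the 103 genes, those with at least 0.2 FPKM in every library. Its highest value over the 4 libraries was within 10% of the lowest in 22 of them and more than 1.5 times the lowest in 14. In *CFAP91* it was 1630 and 4069 bases in *CDYL*-sh, against 891 and 1353 bases in control, so that the higher counts of *CDYL*-sh were divided by greater lengths. In *DNAH1* it also varied between libraries of 1 group, with 3168 and 4476 bases in *CDYL*-sh, against 6877 and 2079 bases in control. Of the 17 genes past the test, *RSPH3* and *IFT172* also had groups that overlapped in FPKM, as *DNAH11* and *CFAP91* did. The log2 ratio of mean CPM and that of mean FPKM had opposite signs in 6 of the 55 genes. With limma on log2(FPKM + 1) or log2(FPKM + 0.1), a change on those scales and not in counts, 0 of the 49 cilia genes that could be tested passed. Of all 15574 genes tested on those scales only 2.96% and 3.26% passed. At an unadjusted p under 0.05 there were 12 and 13 of the 49, beside 4176 and 4179 of all genes. At an adjusted p under 0.05, DESeq2 on the counts called 10 of 62, 16.1% beside 21.8% of all genes. On the FPKM scales *DNAH6* had log2 differences of 0.79 and 1.57, with adjusted p of 0.0883 and 0.0997.

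**Figure D4:**
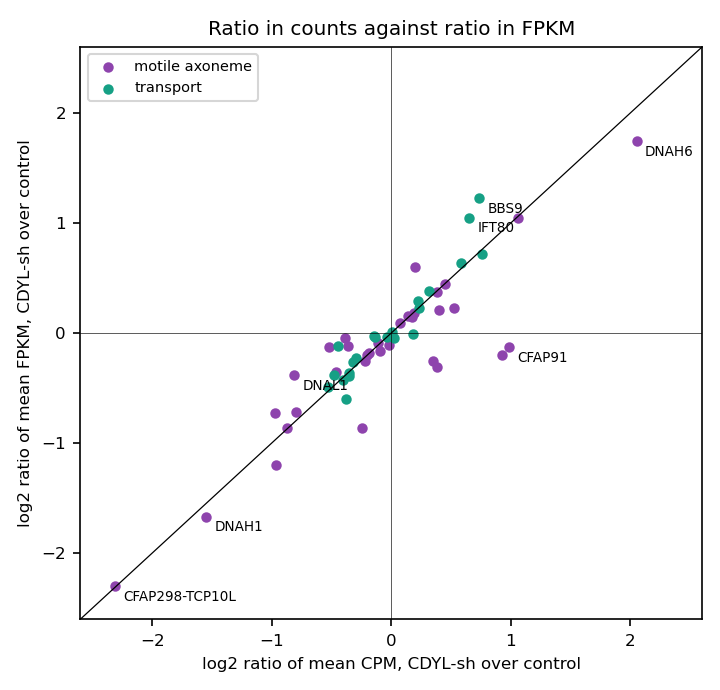
log2 ratio of mean FPKM against log2 ratio of mean CPM, *CDYL*-sh over control, for the 55 cilia genes with an implied length, with the line of equal ratios. Most genes lie near the line, *DNAH6* lies just under it at 2.05 in CPM and 1.74 in FPKM, and *CFAP91* is at 0.98 in CPM and -0.13 in FPKM.

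The direction of change also moved with base composition, in the cilia genes as in all genes. Transcripts of the 7 higher cilia genes had a median GC content of 41.4%, and those of the 10 lower ones 51.5%. Over all genes tested, 26.1% were higher and 4.04% lower among those under 40% GC, against 7.05% higher and 18.6% lower between 50% and 55% GC. With offsets for GC content and length in each library, 20 cilia genes passed, 6 higher and 14 lower, beside 15.3% higher and 17.5% lower over all genes. *CFAP97* (0.17, adjusted p = 0.262) and *RSPH3* (0.38, adjusted p = 0.106) lost the call. *BBS2* (0.34, adjusted p = 0.0114) became higher, and *CFAP210* (-1.09, adjusted p = 0.0226), *CFAP36* (-0.30, adjusted p = 0.0165), *IFT140* (-0.29, adjusted p = 0.0386) and *IFT57* (-0.29, adjusted p = 0.0365) became lower. Among transport genes 2 were then higher and 7 lower, and among axoneme genes 4 were higher and 7 lower. The medians were 0.02 over axoneme genes, -0.16 over transport genes and -0.02 over all. *DNAH6* kept a log2 fold change of 1.81, adjusted p = 1.19e-05, and *DNAH1* one of -1.57, adjusted p = 1.11e-04. Whether the link with GC content arose in the cells or in library preparation was not tested.

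**Figure D5:**
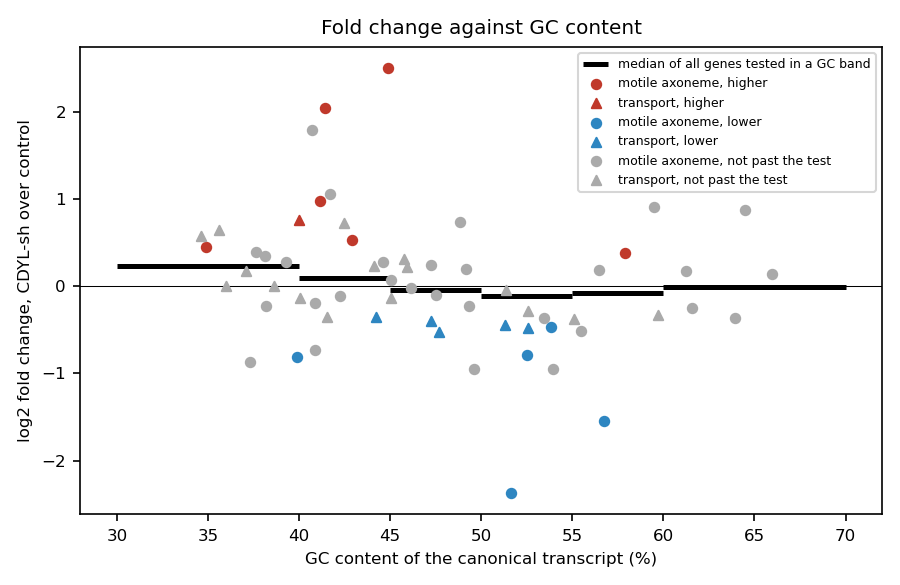
log2 fold change of *CDYL*-sh over control against GC content of the canonical transcript (%) for the 62 tested cilia genes, circles for axoneme and triangles for transport, with the median of all genes tested in each GC band as a black line. The median of all genes is 0.24 under 40% GC and -0.11 between 50% and 55% GC, and most of the higher cilia genes lie under 45% GC.

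Other genes of the cilium were read from 8 lists of 120 genes in the table, of which 98 were tested. In *CDYL*-sh 8 were higher (8.16%) and 14 were lower (14.3%), 22.4% in all. Over all genes tested 13.6% were higher and 12.1% lower, 25.7% in all, so these genes passed no more often than any gene. The counts of each list given below are small and stand beside the same shares. Of 14 tested motors of kinesin-2 and dynein-2, 1 was higher and 1 lower. The dynein-2 heavy chain *DYNC2H1* was at 5.64 and 5.57 CPM in *CDYL*-sh, against 3.66 and 2.79 CPM in control (log2 fold change 0.80 ± 0.23, adjusted p = 0.0172). The dynein light chain *DYNLRB1*, which cytoplasmic dynein also uses, was at 111 and 114 CPM in *CDYL*-sh, against 176 and 192 CPM in control (log2 fold change -0.71 ± 0.10, adjusted p = 9.18e-05). Of 11 other IFT subunits only *TTC30A* passed, which was higher (log2 fold change 0.68 ± 0.23, adjusted p = 0.0379), and of 5 other BBSome genes only the subunit *TTC8*, which was lower (log2 fold change -0.51 ± 0.14, adjusted p = 0.0134).

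Of 12 tested dynein assembly factors, 3 were lower and 1 higher. *RUVBL1*, an ATPase that also serves chromatin remodelling complexes, was at 142 and 145 CPM in *CDYL*-sh, against 194 and 211 CPM in control (log2 fold change -0.50 ± 0.10, adjusted p = 0.00175). *DNAAF5* (log2 fold change -0.31 ± 0.10, adjusted p = 0.0289) and *DNAAF2* (log2 fold change -0.43 ± 0.14, adjusted p = 0.0334) were lower, and *ZMYND10* (log2 fold change 0.89 ± 0.31, adjusted p = 0.0389) was higher. Of 18 other axoneme genes, *STK36* (log2 fold change -0.79 ± 0.14, adjusted p = 4.62e-04) and *SPAG16* (log2 fold change -0.53 ± 0.16, adjusted p = 0.0226) were lower. *SPEF2*, which like *SPAG16* belongs to the central pair apparatus, was higher (log2 fold change 1.08 ± 0.36, adjusted p = 0.0355).

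Of 20 tested transition zone genes, which gate the base of the cilium, 2 were higher and 4 lower. *AHI1* was at 7.14 and 8.79 CPM in *CDYL*-sh, against 3.66 and 3.20 CPM in control (log2 fold change 1.21 ± 0.21, adjusted p = 5.35e-04). *TCTN3* (log2 fold change -0.59 ± 0.12, adjusted p = 0.00141) and *TMEM237* (log2 fold change -0.61 ± 0.13, adjusted p = 0.00258) were lower. *TCTN1* (log2 fold change -0.68 ± 0.18, adjusted p = 0.0105) was lower and *RPGRIP1L* (log2 fold change 0.77 ± 0.22, adjusted p = 0.0161) was higher. Of 7 tested Hedgehog genes that act at the cilium, 2 were lower. The kinesin *KIF7* was at 9.21 and 9.47 CPM in *CDYL*-sh, against 16.4 and 17.6 CPM in control (log2 fold change -0.86 ± 0.16, adjusted p = 6.08e-04), and *SUFU*, which restrains GLI factors, was lower as well (log2 fold change -0.34 ± 0.12, adjusted p = 0.0445). The list of 11 tested ciliogenesis transcription factors held *RFX3*, an X-box factor, at 2.89 and 2.99 CPM in *CDYL*-sh, against 1.29 and 1.39 CPM in control (log2 fold change 1.13 ± 0.31, adjusted p = 0.0126). *MYB* was also higher (log2 fold change 0.96 ± 0.34, adjusted p = 0.0461), and *RFX5*, which is best known for MHC class II genes, was lower (log2 fold change -0.52 ± 0.11, adjusted p = 0.00231). With the GC and length offsets *RFX3*, *DYNC2H1*, *SPEF2*, *TTC30A*, *DNAAF2* and *RPGRIP1L* had adjusted p between 0.0524 and 0.165. *KIF7*, *RFX5*, *RUVBL1*, *DYNLRB1*, *STK36*, *AHI1*, *TCTN3* and *TMEM237* lost the call in none of the count-based alternatives. Each of the other genes of these lists named as higher or lower lost it when at least 1 of the libraries was left out.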

How the data were processed

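Expected counts, which RSEM estimates and which need not be whole, and FPKM, scaled for transcript length and depth, were both deposited by the authors for 58522 genes in 4 libraries. Per the study's methods, TruSeq RNA libraries were read as paired ends on an Illumina HiSeq and aligned with TopHat (genome GRCh38.p10). RSEM and edgeR also stand in the submitters' notes. The annotation release, and whether counting used strand, are not given in the sources used here. Symbols, gene types, positions, lengths and GC content came from GENCODE release 44, matched by Ensembl ID, and promoters from RefSeq (GRCh38.p14).

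Counts were rounded, filtered with filterByExpr (16158 genes kept), normalized by TMM and tested with edgeR 4.0.16 (glmQLFit, glmQLFTest, R 4.3.3), with the group as the sole term. Each adjusted p without a named tool comes from this fit, after Benjamini-Hochberg over the genes tested, with 0.05 as the threshold. The script was tested on simulated data. The alternatives were RLE, upper-quartile and library-size scaling, a filter that was left out or that asked for 10 counts in each library, unrounded counts, a replicate block, offsets for GC content and length, DESeq2 1.42.0, limma-voom, limma 3.58.1 on log2(FPKM + 1) and log2(FPKM + 0.1) for genes with a mean of at least 0.5 FPKM, and each library left out.

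Named genes were each member past the test, the first 3 by mean FPKM of each family, *FOXJ1*, and up to 3 of each companion list by adjusted p. Other genes were named after their values were seen. The result of 1 companion gene is not reported here. The members and lists were chosen with earlier results of these data known. With 2 libraries against 2, an exact permutation test of a single gene cannot reach 0.05.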

Additional observations from a re-analysis of the deposited data

How the results depend on the processing

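Of the 17 cilia genes past the test, *DNAH1*, *DNAH6*, *DNAL1* and *IFT22* kept the call in all 15 alternatives based on counts, and *DNAH11* in the 14 that tested it, since it fell out under the filter of 10 counts in each library. With DESeq2, 10 cilia genes passed (7 axoneme, 3 transport), 16.1% beside 21.8% of all genes, and with scaling by library size alone 3 transport genes did, 13.6% beside 24.3%. Other settings went the opposite way. Under the filter of 10 counts in each library 21 cilia genes passed, 37.5% beside 30.2%, with 9 transport genes (40.9%). When the filter was left out 20 did, 21.7% beside 17.1%, with 8 transport genes (34.8%). With limma on log2(FPKM + 1) and log2(FPKM + 0.1), 461 and 507 of 15574 genes passed in all, or 2.96% and 3.26%. Among them were 0 and 0 of 49 cilia genes (0 axoneme and 0 transport in each) and 2 and 2 of 91 companion cilia genes. *DNAH6* then had log2 differences of 0.79 and 1.57 and did not pass, and *CFAP91* turned to -0.11 and -0.21. Over fits that left out 1 library, the calls ranged from 2082 to 4006 for all genes and from 7 to 17 for cilia genes. They ranged from 6 to 12 for axoneme genes, from 1 to 5 for transport genes and from 11 to 25 for companion genes, and *DNAH6* from 1.69 to 2.51. Those fits take the spread of the lone library from the other group.

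The replicate numbers of the 2 groups are shared in the labels, but the labels name no shared batch, so a block on these numbers was run only as an alternative. The correlation of same-numbered libraries' deviations was 0.03, a single value that cannot decide whether the libraries were paired. With the replicate block 5393 genes passed in all, 33.4% of those tested. Among them were 20 cilia genes (32.3%), of which 11 were axoneme (27.5%) and 9 transport genes (40.9%), and 30 companion genes (30.6%). In that fit *DNAH6* had a log2 fold change of 2.07. The tested genes chosen by the naming rule other than *DNAH6* were followed over all alternatives, which leaves out genes named after their values were seen. Of their values, 632 stayed on their side of the threshold, 152 lost the call and 10 gained it. Another 2 reversed with a call in either fit, both *CFAP91* in FPKM. A change of sign where neither fit passed was counted among the 632. *FOXJ1*, for instance, ranged from -0.10 to 0.33 when a library was left out. Depth limits the 41 untested genes, for which these libraries give no comparison.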
